A study of Mus musculus with 3 samples.

Results

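Cyclin-dependent kinase (Cdk) inhibitors and the p53 pathway were examined in EpH4-PR cells through 10 genes, namely Cdkn1a, Cdkn1b, Cdkn1c, Cdkn2a, Cdkn2b, Cdkn2c, Cdkn2d, Trp53, Mdm2 and Ccng1. The members were chosen by name, as every non-control probe whose gene name in the array files is one of these, which gave 15 of 41174 probes, where 5 genes had 2 probes and 5 had 1. EpH4-PR is a mouse mammary epithelial cell line derived from pregnant gland and stably transfected with the A isoform of the progesterone receptor (PR-A), cultured in DMEM with 10% FBS to about 75% confluence, and whether it is 1 clone is not given in the sources used here. RNA from these cells was labelled with Cy5 and a commercial mouse reference RNA (Stratagene mouse standard) with Cy3 on each of 3 two-colour Agilent whole mouse genome arrays, without a dye swap. The arrays are numbered as replicates 1, 2 and 3, and since nothing states that they came from separate cultures, the p-values measure only the spread between these arrays, which may be technical. Arrays of the vector control line EpH4-EV were not analysed here, so each ratio gives the level in EpH4-PR cells relative to the reference RNA and is not an effect of PR.

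Cdk inhibitors restrain the cell cycle in 2 families. The Cip/Kip proteins encoded by Cdkn1a (p21), Cdkn1b (p27) and Cdkn1c (p57) bind cyclin-Cdk complexes broadly, while the Ink4 proteins encoded by Cdkn2a (p16), Cdkn2b (p15), Cdkn2c (p18) and Cdkn2d (p19) bind the kinases Cdk4 and Cdk6, which work with D-type cyclins to phosphorylate the retinoblastoma protein. Cdkn2a also encodes Arf from another first exon, a protein that restrains Mdm2, the ubiquitin ligase that degrades p53. The transcription factor p53, encoded by Trp53, activates Cdkn1a, Mdm2 and Ccng1, the gene of cyclin G1. In mammary epithelium, p21 and p27 take part in the hormonal control of proliferation, and Ink4 genes and p53 are often lost or silenced when epithelial cells are immortalised in culture.

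Cdkn2a and Cdkn2b are neighbours on mouse chromosome 4, with 0 protein-coding genes between them in the RefSeq gene table, and both were lower in EpH4-PR than in reference RNA. Their RefSeq promoter windows are shown for that reason, as the 250 bases upstream of each annotated start (GRCm38.p6, minus strand, read 5′ to 3′ along the gene), with capitals marking the GC box, GGGCGG on either strand. Cdkn2a has 2 annotated starts, the more upstream of which lies at the position of the Arf first exon, and the probe on the arrays is assigned to the gene without a position.
Cdkn2a upstream start (chr4:89294620-89294869): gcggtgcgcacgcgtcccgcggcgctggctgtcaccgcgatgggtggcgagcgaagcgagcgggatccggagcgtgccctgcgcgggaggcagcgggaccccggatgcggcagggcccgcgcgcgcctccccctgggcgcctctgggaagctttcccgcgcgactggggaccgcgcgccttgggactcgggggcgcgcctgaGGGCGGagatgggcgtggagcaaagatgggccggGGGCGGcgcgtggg
Cdkn2a downstream start (chr4:89282193-89282442): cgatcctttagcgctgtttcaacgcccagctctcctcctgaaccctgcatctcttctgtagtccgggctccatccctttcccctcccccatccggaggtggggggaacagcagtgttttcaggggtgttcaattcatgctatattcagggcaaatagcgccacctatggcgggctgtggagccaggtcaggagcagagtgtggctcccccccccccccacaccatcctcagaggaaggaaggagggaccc
Cdkn2b (chr4:89311033-89311282): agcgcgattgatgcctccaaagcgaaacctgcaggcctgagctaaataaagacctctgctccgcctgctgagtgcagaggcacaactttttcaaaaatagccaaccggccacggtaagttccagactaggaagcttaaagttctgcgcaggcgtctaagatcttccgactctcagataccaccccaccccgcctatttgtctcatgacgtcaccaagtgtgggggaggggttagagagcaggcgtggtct
The 3 windows differed in composition. The upstream Cdkn2a window held 40 CG dinucleotides, more than 98.7% of 32851 RefSeq promoter windows of this length, against 7 in the downstream Cdkn2a window and 12 in the Cdkn2b window, with a median of 6 over all windows. It held 2 GC boxes, and the other 2 windows held 0, while a GC box is present in 32.7% of all windows. Among the 10 genes, 9 had a promoter in the table, and Cdkn1c had none. These counts describe the reference sequence, and methylation or binding at these sites was not measured.

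The cells carried epithelial transcripts on all arrays. Of 8 luminal markers, 7 were higher in EpH4-PR than in reference RNA, Cdh1 most of all (log2 ratio 4.29 ± 0.10, SD, n = 3 arrays), while Krt19 was lower (-2.62 ± 0.18), and all 8 were well above background in EpH4-PR RNA. These ratios are of the brightest probe of each gene. Of 5 basal markers, Krt14 was higher (2.08 ± 0.13) and Mylk had the lowest ratio by that probe (-0.89 ± 0.02). The other probes of Mylk ranged from -1.09 to 0.31. Acta2 was at 0.60 ± 0.11 by its brightest probe, with its lowest probe at -2.01, so the probes of both genes lay on both sides of 0. All 7 mesenchymal markers were lower, from Vim (-6.51 ± 0.11, with another probe at -0.14) to Pdgfrb (-1.37 ± 0.05), although each was still well above background, and of 6 blood markers Ptprc was not well above background in EpH4-PR RNA on any array and was at least 19.8-fold lower (adjusted p = 1.26e-05, limma) with another probe at -0.19, while Cd3e had the highest ratio of that list (0.11 ± 0.07). The reference RNA is not described beyond its name, so a low ratio can reflect either less RNA in EpH4-PR cells or more in the reference, and in bulk RNA fewer cells of a type and less RNA per cell cannot be told apart. The 2 probes of Pgr, the progesterone receptor gene, were each well above background in EpH4-PR RNA on 1 of 3 arrays and in the reference RNA on 2. Their log2 ratios were -0.11 ± 0.22 and -0.19 ± 0.08 (SD, n = 3), so neither probe read above the reference. Whether these probes can read the transfected sequence was not analysed here, and the paper describes PR-A as constitutively expressed in these cells. In EpH4-PR RNA, between 29603 and 30939 of the 41174 probes were well above background per array.

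The Cdkn2 probes all stood on the low side of the reference RNA, and those of Trp53, Mdm2 and Ccng1 did not all do so. Whether the Cdkn2a probe reads p16, Arf or both was not analysed here. Ratios are given as log2 of EpH4-PR over reference RNA after background correction and loess, which sets to 0 the typical ratio of probes of the same brightness. A probe was called when its ratio was at least 1 log2 unit (2-fold) from 0 with a Benjamini-Hochberg adjusted p under 0.05 in limma, fitted over 41171 probes. All 5 probes of the 4 Cdkn2 genes were called lower, beside 3.83% of all probes tested, whereas 0 of the 4 Cdkn1 probes and 0 of the 6 probes of Trp53, Mdm2 and Ccng1 were. Called higher were 2 of the 15 probes, one each of Trp53 and Ccng1, beside 2.26% of all probes tested, so 7 of 15 were called in either direction against 6.10% of all. Without the limit on size, 13 of 15 had an adjusted p under 0.05, 4 of them above 0 and 9 below, beside 25.7% and 24.6% of all probes, and these included 2 of the 4 Cdkn1 probes. The median log2 ratio was -1.84 over the Cdkn2 probes, -0.05 over the Cdkn1 probes and 0.12 over the Trp53, Mdm2 and Ccng1 probes, beside -0.01 over all probes. The median SD between arrays was 0.07 over the members and 0.09 over all probes.

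**Figure D1:**
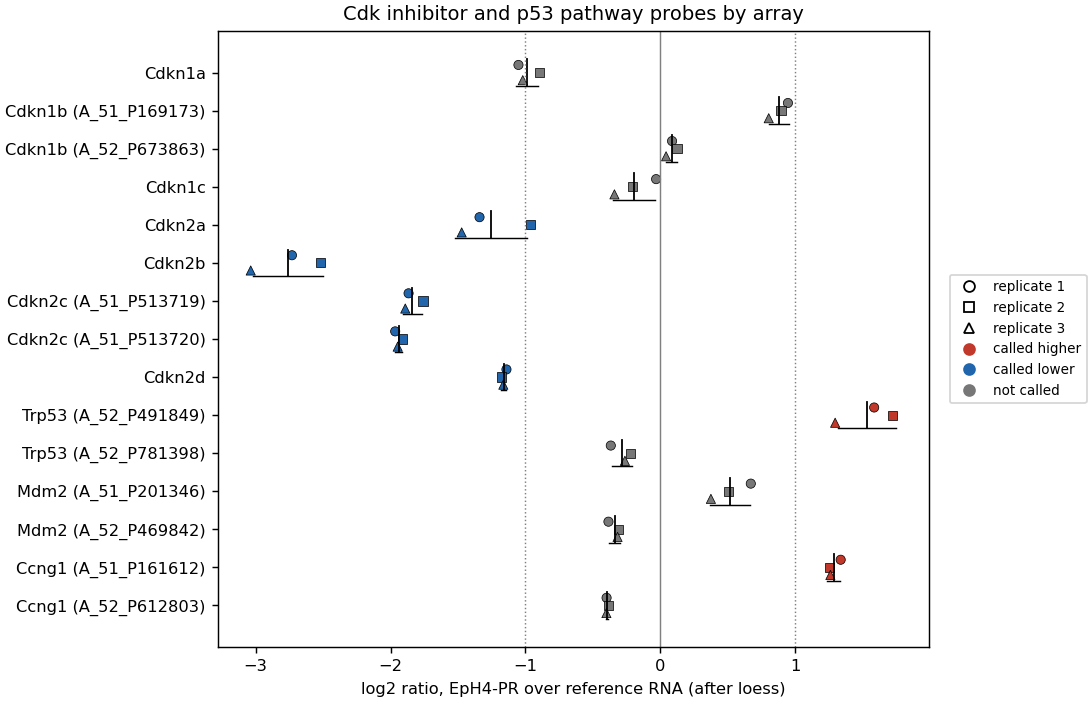
The log2 ratio of EpH4-PR to reference RNA (x axis) is plotted for each probe of the 10 genes (y axis) on replicates 1, 2 and 3, with vertical bars for the mean and horizontal bars for 1 SD; dotted lines mark 1 log2 unit either way. All Cdkn2 points lie below 0, and the 2 probes of Trp53 lie on opposite sides of 0, as do those of Mdm2 and Ccng1.

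Cdkn2b, which encodes p15, an inhibitor of Cdk4 and Cdk6 known as a target of TGFβ signalling, had the lowest ratio of the members. Its single probe (A_52_P498241) read 91.0, 102 and 78.4 intensity units in EpH4-PR RNA on replicates 1, 2 and 3, against 380, 357 and 375 in the reference RNA. The EpH4-PR signal lay close to the negative control spots, whose 95th percentile in that channel was 85.9, 87.4 and 62.9, while the reference signal was far above its own limit of 162, 168 and 107. The log2 ratio was -2.73, -2.52 and -3.04, averaging -2.76 ± 0.26 (SD, n = 3, 6.78-fold lower, adjusted p = 5e-05, limma). Only 0.345% of all probes had a lower ratio. The size of this ratio moved with the processing, to -4.13 with a normexp offset of 0 and -4.41 in the log ratio computed by the scanner, and it stayed below -2 in every alternative.

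Cdkn2a, which encodes p16 and Arf, was also lower in EpH4-PR RNA. Its probe (A_51_P144813) read 92.7, 87.7 and 67.5 in EpH4-PR RNA and 213, 176 and 167 in reference RNA. In both channels it was above the 95th percentile of the negative control spots on all 3 arrays. In EpH4-PR RNA the margin was narrow, with limits of 85.9, 87.4 and 62.9. In reference RNA the limits were 162, 168 and 107, and the margin was narrow on replicate 2. The log2 ratio was -1.34, -0.96 and -1.47, averaging -1.26 ± 0.27 (SD, n = 3, adjusted p = 0.000542, limma). Replicate 2 alone lay inside the limit of 1 log2 unit. The ratio moved to -2.94 in the scanner's log ratio, and the probe missed the threshold when the methods' t-test was adjusted by Benjamini-Hochberg across all probes (adjusted p = 0.052).

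Cdkn2c, which encodes p18, was measured far above background in both channels, and its 2 probes gave nearly the same ratio. The first (A_51_P513719) read 610, 593 and 596 in EpH4-PR RNA and 899, 833 and 878 in reference RNA, with log2 ratios of -1.87, -1.76 and -1.89, which average -1.84 ± 0.07 (SD, n = 3). The second (A_51_P513720) had log2 ratios of -1.97, -1.91 and -1.95, which average -1.94 ± 0.03 (SD, n = 3, adjusted p = 1.82e-05, limma). The difference between the probes was 0.10 ± 0.05 log2 units, the smallest of the 5 genes with 2 probes. Cdkn2d, which encodes the Ink4 protein p19 and is distinct from Arf, read 864, 740 and 789 in EpH4-PR RNA and 768, 701 and 705 in reference RNA on its probe (A_51_P122356). Its log2 ratio was -1.14, -1.18 and -1.16, averaging -1.16 ± 0.02 (SD, n = 3, adjusted p = 4.4e-05, limma). The 3 arrays thus differed little for both genes, but their ratios depended on loess.

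Before loess, the mean ratio was -0.49 and -0.63 for the 2 Cdkn2c probes and 0.20 for Cdkn2d, and the loess shift was -1.35, -1.31 and -1.36 log2 units. Bright probes were brighter in Cy5 on these arrays, and the 1647 probes of like intensity had a median ratio of 1.38 before loess with a 5th percentile of 0.15. The Cdkn2c probes lay below that 5th percentile and Cdkn2d just above it. After loess the 5th percentile of the same probes was -1.16, which equals the Cdkn2d ratio at this rounding. With median centring of each array in place of loess, Cdkn2c had ratios of -0.64 and -0.78, which were no longer called, and Cdkn2d turned to 0.049. Under that setting 2 member probes, those of Cdkn2a (-1.15) and Cdkn2b (-2.18), remained lower by the same limits. The direction of Cdkn2d therefore holds relative to probes of its own brightness and not relative to all probes.

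**Figure D2:**
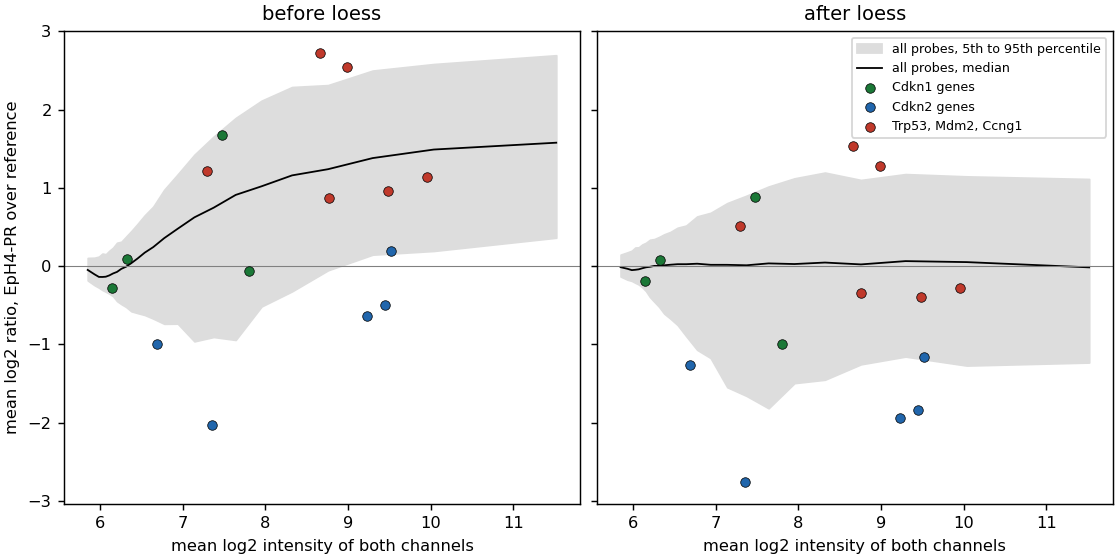
The mean log2 ratio over 3 arrays (y axis) is plotted against the mean log2 intensity of both channels (x axis), before loess on the left and after it on the right, for the member probes (points) and for all probes in 25 bins of intensity (line for the median, shading from the 5th to the 95th percentile). The median of bright probes lies above 1 before loess and near 0 after it, and the Cdkn2c points stay below the shading in both panels.

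The Cip/Kip genes did not share a direction, and 0 of their 4 probes were called. Cdkn1a, which encodes p21, the best known p53 target among the Cdk inhibitors, read 235, 220 and 228 in EpH4-PR RNA and 291, 258 and 249 in reference RNA on its single probe (A_51_P363947). Its log2 ratio was -1.05, -0.90 and -1.02, averaging -0.99 ± 0.08 (SD, n = 3, adjusted p = 0.000111, limma), just inside the limit of 1 log2 unit, and it was called lower without replicate 2 (-1.04), in the scanner's log ratio (-1.28) and with a normexp offset of 0 (-1.30). Under median centring the ratio was -0.21. All 3 arrays put Cdkn1a below the reference RNA, with a loess shift of -0.93 included in the mean.

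Cdkn1b, which encodes p27, was higher on 1 of its 2 probes (A_51_P169173), with 336, 344 and 306 intensity units in EpH4-PR RNA against 148, 151 and 121 in reference RNA. The log2 ratio was 0.95, 0.89 and 0.80, averaging 0.88 ± 0.07 (SD, n = 3, adjusted p = 0.000137, limma), inside the limit for a call. The reference signal of this probe was above the 95th percentile of negative control spots on 1 of 3 arrays, and its ratio was 1.68 in the scanner's log ratio, 1.53 under median centring and 1.36 with a normexp offset of 0, and it was called in all 3. The second probe (A_52_P673863) was near background, at 93.1, 105 and 80.1 in EpH4-PR RNA, and its reference signal was well above background on 1 array. Its log2 ratio was 0.08 ± 0.04 (SD, n = 3, adjusted p = 0.165, limma) and -0.065 under median centring. The probes of Cdkn1b differed by 0.80 ± 0.05 log2 units. Cdkn1c, the imprinted gene of p57, was near the limit of measurement, with 79.7, 80.6 and 63.5 in EpH4-PR RNA (well above background on 1 of 3 arrays) and a reference signal under the 95th percentile of negative control spots on every array. Its log2 ratio of -0.19 ± 0.16 (SD, n = 3, adjusted p = 0.072, limma) did not pass the threshold. It was -0.43 under median centring (adjusted p = 0.000507, limma) and -1.25 in the scanner's log ratio, where it was called lower (adjusted p = 0.0403, limma).

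**Figure D3:**
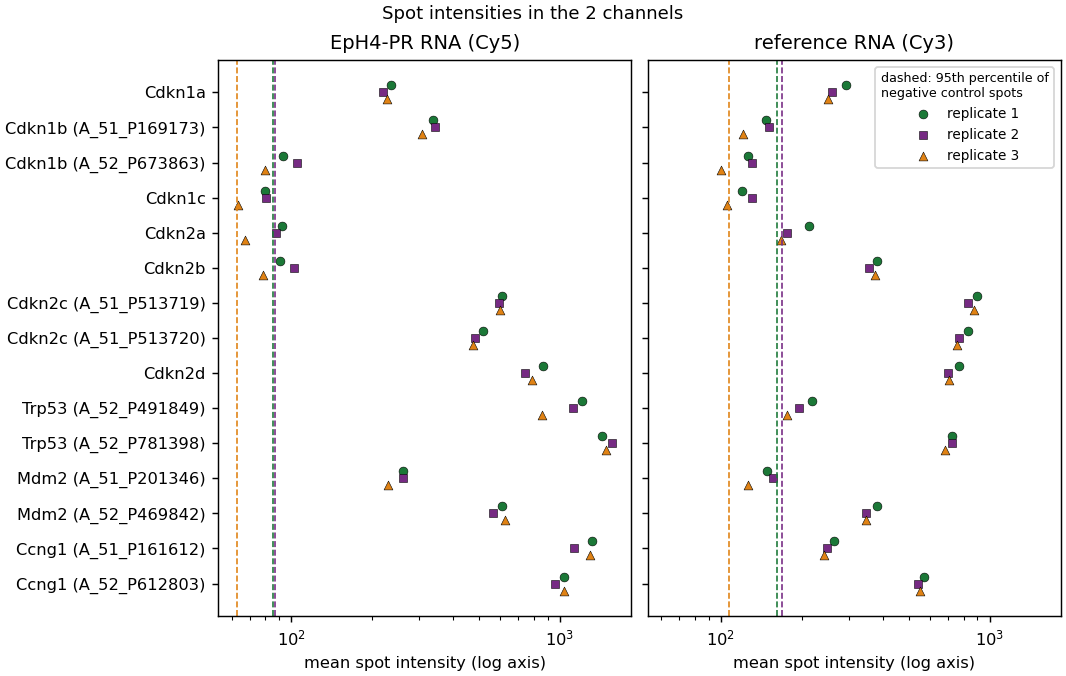
The mean spot intensity of each member probe (log x axis, arbitrary scanner units) is plotted for EpH4-PR RNA in Cy5 (left) and reference RNA in Cy3 (right) on the 3 arrays, with dashed lines at the 95th percentile of 314 negative control spots of each array. In EpH4-PR RNA, Cdkn2a, Cdkn2b, Cdkn1c and the second Cdkn1b probe lie beside those lines, while all points of Trp53, Mdm2 and Ccng1 lie to the right of them.

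Trp53 transcripts were plainly present in EpH4-PR RNA, but the 2 probes disagreed on the ratio. The first (A_52_P491849) read 1211, 1122 and 858 in EpH4-PR RNA and 219, 196 and 176 in reference RNA, and its log2 ratio was 1.58, 1.72 and 1.30, averaging 1.53 ± 0.22 (SD, n = 3, 2.90-fold higher, adjusted p = 0.000163, limma). It was called higher in every alternative. The second (A_52_P781398) read 1437, 1564 and 1478 in EpH4-PR RNA and 727, 727 and 680 in reference RNA. Its log2 ratio was -0.37, -0.22 and -0.26, averaging -0.28 ± 0.07 (SD, n = 3, adjusted p = 0.00714, limma), and 0.99 under median centring. Between the probes the ratio differed by 1.95, 1.94 and 1.56 log2 units on the 3 arrays (1.82 ± 0.23, SD, n = 3), and by 1.58 before loess. Both probes are assigned to the same RefSeq transcript, NM_011640. Where each probe lies in the transcript was not analysed here, so one level for Trp53 relative to the reference cannot be given.

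Ccng1, a p53 target whose product cyclin G1 recruits a phosphatase to Mdm2, had the same split. One probe (A_51_P161612) read 1317, 1125 and 1289 in EpH4-PR RNA and 263, 247 and 243 in reference RNA, with log2 ratios of 1.34, 1.25 and 1.26, which average 1.28 ± 0.05 (SD, n = 3, adjusted p = 3.99e-05, limma). It was called higher in every alternative. The other (A_52_P612803) read 1033, 962 and 1034 in EpH4-PR RNA and 571, 541 and 549 in reference RNA, with a mean log2 ratio of -0.39 ± 0.01 (SD, n = 3, adjusted p = 0.00115, limma), which was 0.81 under median centring. The probes differed by 1.68 ± 0.05 log2 units, and they are assigned to different records, NM_009831 and Z37110.

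Mdm2, which both answers to p53 and degrades it, was not called on either of its 2 probes. The probe A_51_P201346 read 261, 262 and 229 in EpH4-PR RNA and 149, 156 and 126 in reference RNA, and its log2 ratio was 0.67, 0.50 and 0.37, averaging 0.52 ± 0.15 (SD, n = 3, adjusted p = 0.00274, limma). Its reference signal was above the 95th percentile of negative control spots on 1 of 3 arrays, and in the scanner's log ratio it was called higher at 1.11 (adjusted p = 0.0299, limma). The probe A_52_P469842 read 607, 564 and 627 in EpH4-PR RNA and 381, 347 and 348 in reference RNA, and its mean log2 ratio was -0.34 ± 0.04 (SD, n = 3, adjusted p = 0.00251, limma). Their difference was 0.85 ± 0.18 log2 units, against 0.34 before loess and 1.45 in the scanner's log ratio. Under median centring both ratios were above 0, at 1.07 (called) and 0.72 (not called). Of the 3 genes of the p53 axis, none thus had 2 probes on the same side of 0 after loess, and all 6 probes were above 0 under median centring.

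**Figure D4:**
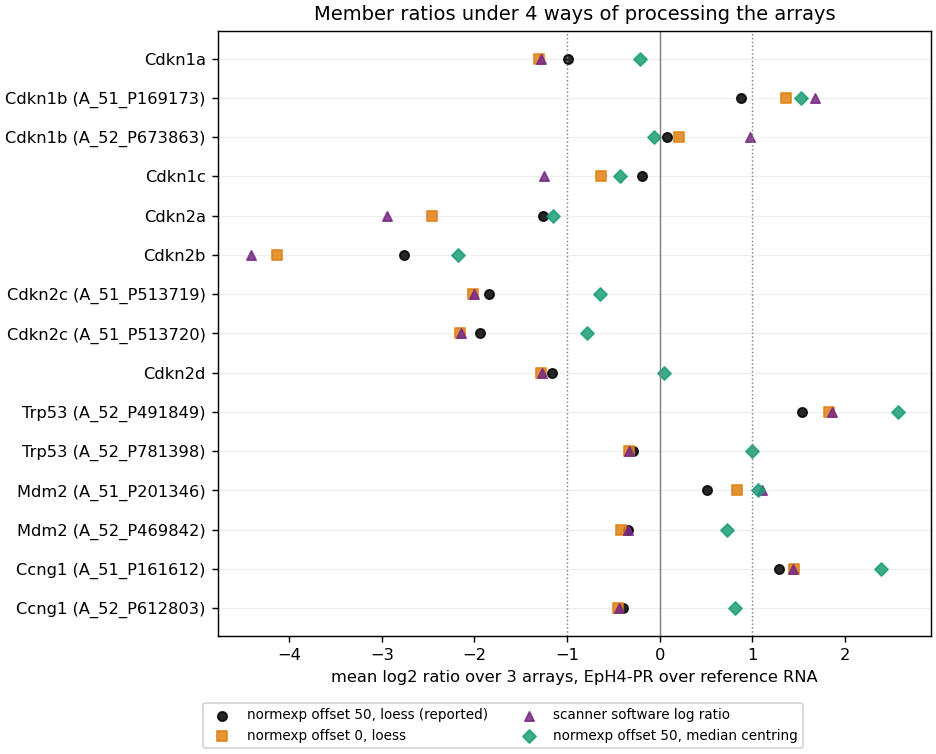
The mean log2 ratio over 3 arrays (x axis) is plotted for each member probe (y axis) under the reported processing and under 3 alternatives, a normexp offset of 0, the scanner's log ratio and median centring. Cdkn2a and Cdkn2b stay below -1 and the first probes of Trp53 and Ccng1 above 1 in all 4, whereas Cdkn2d, the second probes of Trp53, Mdm2 and Ccng1 and the dim Cdkn1b probe change sign under median centring.

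Around these genes, most other members of the pathway were not called. Of 76 further genes in 6 lists, all with a probe, 3 were called higher, 8 lower and 65 were not called. Of all probes tested, 2.26% were called higher and 3.83% lower. The median ratio of the 76 genes was 0.05. For a gene with several probes the brightest was used, whereas the shares of all probes include dim ones, so the counts and shares are not of like probes. Of the 76 genes, 19 had probes on both sides of 0. A list of 10 genes of the G1 and S phases held cyclins and Cdks, the partners that Cdk inhibitors bind, and Cdc25a. Of these, Ccne1 was called higher (1.01 ± 0.07, SD, n = 3) and 0 were called lower, with a list median of 0.39. Ccne1 was not called without replicate 3 (0.97) or with median spot intensities (0.999), and its other probe was at 0.61. Cdk4 and Cdk6, the kinases that Ink4 proteins bind, had log2 ratios of 0.05 ± 0.07 and 0.64 ± 0.16, and the D-type cyclins ranged from -0.39 (Ccnd2) to 0.73 (Ccnd1). None of these 5 genes was called.

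Among 10 pocket proteins and E2f factors, the retinoblastoma gene Rb1, whose product is phosphorylated by Cdk4 and Cdk6, was called lower (-1.75 ± 0.04, SD, n = 3). E2f6, a repressor of the E2f family, was called higher (1.06 ± 0.05). The other probes of Rb1 and E2f6 were at -0.34 and -0.08, so neither call is shared by both probes of its gene. Under median centring Rb1 was at -0.89 and no longer called. The list median was 0.55. Of 15 regulators of Cdk inhibitors, 0 were called higher and 2 lower, namely Jun (-2.21 ± 0.07), an immediate early factor known to repress Trp53, and Tbx3 (-1.11 ± 0.17), a repressor of Cdkn2a known for its part in mammary development, whose other probe was at 0.10 and which was at -0.82 and no longer called under median centring. The Polycomb genes Bmi1 and Ezh2, whose products silence Cdkn2a, had ratios of -0.87 ± 0.05 and 0.23 ± 0.03, with the other Bmi1 probe at -0.12. Of 12 regulators of p53 and the 2 paralogs Trp63 and Trp73, 0 were called in either direction.

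Among 27 further genes listed as p53 targets, 1 was called higher, 5 lower and 21 were not called, and the list median was -0.02. Whether each listed gene answers to p53 in these cells was not tested. Perp, which encodes a desmosome protein needed in stratified epithelia as well as a p53 effector, was the gene called higher, with log2 ratios of 2.47, 2.44 and 2.49 and a mean of 2.47 ± 0.02 (SD, n = 3). The genes called lower were Pmaip1 (-2.69 ± 0.19), which encodes the apoptosis inducer Noxa, Ccng2 (-2.08 ± 0.03), the paralog of Ccng1, the antiproliferative gene Btg2 (-1.84 ± 0.06), the growth arrest gene Gadd45a (-1.30 ± 0.05) and Apaf1 (-1.04 ± 0.09), which encodes the apoptosome scaffold. Pmaip1 was well above background in EpH4-PR RNA on 2 of 3 arrays. The other probes of Btg2 and Apaf1 reached 0.03 and 0.16. The proapoptotic gene Bax lay just inside the limit at 1.00 ± 0.13. Under median centring Btg2, Ccng2, Gadd45a and Apaf1 were no longer called (-0.87, -0.81, -0.02 and -0.16). The counts over the 76 genes became 37 higher and 2 lower, beside 7031 higher and 708 lower of all 41171 probes tested. The 76 genes are read on their brightest probes and all probes include dim ones, so these counts are not of like probes. The split around 0, of the pathway and of all probes, thus depends on how the arrays are centred.

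**Figure D5:**
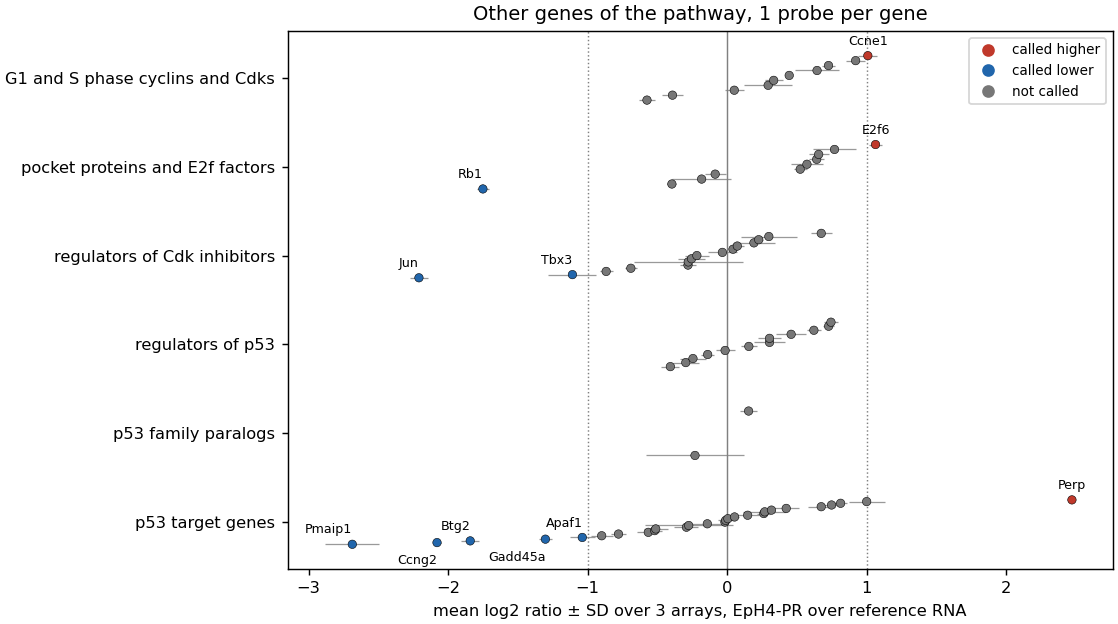
The mean log2 ratio of EpH4-PR to reference RNA (x axis, bars for SD over 3 arrays) is plotted for 76 genes in 6 lists (y axis), 1 probe per gene, with dotted lines at 1 log2 unit either way and called genes named. Of these, 3 genes lie on the higher side of the limits with a call and 8 on the lower side, 5 of them from the list of p53 target genes.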

How the data were processed

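RNA of EpH4-PR cells (Cy5) and a commercial reference RNA (Cy3) was hybridised to 3 arrays. The authors deposited the output of Agilent Feature Extraction (8.1.1.1, per the file headers), with a mean, a median and a local background intensity per spot and channel and the scanner's log10 ratio (Cy5 to Cy3). A deposited table of fold changes and p-values holds the authors' own comparison and was not used. The genome build is not given in the sources used here, and promoters come from RefSeq (GRCm38.p6).

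Mean intensities were corrected with normexp (offset 50), normalized by loess within arrays with control and outlier spots at weight 0, and averaged over the spots of a probe with limma 3.58.1 in R 4.3.3. This left 41174 probes, 41171 of them with values on at least 2 arrays. Outlier spots (150, 18 and 3 on replicates 1, 2 and 3) were left out, none of them of a member. Mean log2 ratios were set against 0 by lmFit and eBayes (two-sided, Benjamini-Hochberg) and called at an adjusted p under 0.05 and 1 log2 unit. The test alone was run on simulated ratios with independent noise for each probe. That run did not cover background correction, loess or dye bias, and its outcome is not given here. The number of arrays limits the precision. Pathway genes were matched by the name in the files or by RefSeq accession, which gave a current symbol for 21445 of 23705 probes with one. Every member probe is named, with called list genes and the highest and lowest cell type markers, and other list genes were named after their values were seen. Members and lists were chosen with earlier results of these data known. The comparisons with negative control spots and with probes of like intensity were added after the values were seen. Alternatives were median centring, the scanner's log ratio, a normexp offset of 0, Aquantile, the mean over a gene's probes, a one-sample t-test against 0 (with and without Benjamini-Hochberg adjustment), an eBayes trend on intensity, leaving out each array, median spot intensities, keeping outlier spots and filtering dim probes.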

Additional observations from a re-analysis of the deposited data

How the results depend on the processing

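Of 195 comparisons of a member probe with an alternative, 178 kept the direction and the call. Not all of these could differ, since Aquantile repeats the reported ratios and calls. The filter on dim probes, the eBayes trend and the one-sample t-tests kept the reported ratios, so there only the call could change. Cdkn2b and the first probes of Trp53 and Ccng1 kept theirs in all 13 alternatives, and Cdkn2a in all but the one-sample t-test after Benjamini-Hochberg adjustment. Median centring reversed Cdkn2d (0.049), the second probes of Trp53 (0.99), Mdm2 (0.72) and Ccng1 (0.81) and the dim Cdkn1b probe (-0.065). Member probes called higher were 2, or 4 by the scanner's log ratio, 4 by median centring and 3 with a normexp offset of 0. Those called lower were 5, or 2 by median centring, 7 by the scanner's log ratio, 6 with a normexp offset of 0 and 4 by the adjusted one-sample t-test, with 5 to 6 when a replicate was left out. Over all probes, 932 were called higher and 1578 lower (37.1% higher). Median centring gave 7031 and 708 (90.9%), the scanner's log ratio 3616 and 3887 (48.2%) and a normexp offset of 0 gave 3125 and 3905 (44.5%). Pathway genes called higher numbered 3, but 37 by median centring, 8 by the scanner's log ratio, 6 with a normexp offset of 0 and 1 by the mean over a gene's probes. Those called lower numbered 8, but 2 by median centring and 5 by the mean over a gene's probes. They numbered 11 by the scanner's log ratio and 11 with a normexp offset of 0. What causes these changes was not tested. Aquantile leaves the ratios as they are. Each slide held 1 array, so no block was fitted. No paired analysis was possible because there is 1 group. In 4 of 15 member probes, those of Cdkn1c and Cdkn1b and Mdm2 A_51_P201346, the signal was not above the 95th percentile of negative control spots in both channels on all arrays, which limits their ratios.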
